A study of Oryza sativa with 12 samples.

Results

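Subunit genes of the protein kinase casein kinase 2 (CK2) were followed through 3 rice loci chosen by their identifiers: Os03g0762000, taken as Hd6, and the beta subunit genes Os07g0495100 and Os10g0564900, out of 38867 genes in the table of shoot apical meristem (SAM) libraries. All 3 had enough counts to be tested. The deposited annotation gives Os03g0762000 the symbol ACK2 and the orthology class of the alpha subunit, and gives both beta loci the symbol CKB4. It places the symbol HD6 on other alpha loci, Os03g0207300 and Os07g0114400, so that Os03g0762000 is Hd6 rests on general knowledge and not on the table.

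CK2 is a serine/threonine kinase found across eukaryotes, built from catalytic alpha and regulatory beta subunits that are encoded by small gene families in plants. It phosphorylates a wide range of nuclear and cytosolic proteins. In Arabidopsis these include the clock factor CCA1, and beta subunits shift the pace of the clock there. In rice, Hd6 is a heading-date gene that encodes an alpha subunit and delays flowering in long days, together with Hd1. The allele of the reference cultivar Nipponbare carries a premature stop codon, and which cultivar was grown is not stated in the labels.

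Field-grown rice (Oryza sativa) was sampled 1 month after transplanting, as wild type (WT) and as a mutant of myb110. The MYB110 protein is a transcription factor that the title of the series groups with the clock factor Nhd1 and the floral factor MADS15 in the control of flowering time. For each genotype 3 SAM pools of 20 plants were sequenced, and p-values therefore measure the spread between pools. The myb110 allele, how it was made and the number of mutant lines were not given in the sources used here. Levels in the leaf blade, and the comparison of blade with meristem, are not analysed here, because blade columns matched no labelled genotype. The SAM libraries held between 14112966 and 18896372 deposited counts.

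The locus taken as MYB110, Os10g0478300, which the table names MYB4, was below the count filter, with estimated counts of 5.67, 0 and 1.47 in WT and 0 in each myb110 library, so its level cannot check which libraries are mutant. Among all 23167 tested genes, 22.6% passed at an edgeR adjusted p below 0.05, 10.9% as rises and 11.7% as falls. Of 5 tested meristem markers, all KNOX or WOX homeobox genes, 4 did not pass and 1 fell, which is near the share over all genes. Their summed level overlapped between genotypes, from 321 to 329 FPKM in WT and from 315 to 333 FPKM in myb110 (FPKM, fragments scaled for gene length and library size). OSH1 alone fell, by 0.09 ± 0.03 on the log2 scale (edgeR adjusted p = 0.0337). It no longer passed in DESeq2 (0.0658) or limma (0.228), nor when WT replicate 2 (0.105), WT replicate 3 (0.0691), myb110 replicate 2 (0.227) or myb110 replicate 3 (0.119) was left out. Leaf mesophyll markers moved with genotype: 16 of 18 tested fell, against 11.7% over all tested genes, and none rose. The sum over all 21 in the table was 970 to 1050 FPKM in WT and 336 to 360 FPKM in myb110. The light-harvesting genes CAB1R and CAB2R were among those that fell, and they and the other 16 tested markers had counts in all 6 libraries. The part of this difference in the results below was not tested, and in bulk tissue fewer cells of a type cannot be told apart from less RNA per cell.

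Hd6 was about 3 times as abundant in the mutant meristem as in WT, both beta subunit genes were 1.21 to 1.27 times as abundant, and no other alpha subunit gene passed the test. Each of the 3 genes was higher in myb110 with no overlap between genotypes. Over all 23167 tested genes, 22.6% passed at an edgeR adjusted p below 0.05, with 10.9% higher and 11.7% lower in myb110. The values of WT and myb110 lay apart, with no overlap, for 36.1% of them.

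Hd6 had 193, 261 and 266 counts in the 3 WT libraries and 621, 572 and 802 counts in the 3 myb110 libraries. As CPM, counts scaled to a common library size, these were 13.3, 14.1 and 15.7 in WT and 44.1, 39.9 and 42.5 CPM in myb110. Every mutant library lay far above every WT library. The mean rose from 14.4 ± 1.22 to 42.2 ± 2.14 CPM (SD, n = 3), a 2.93-fold difference with a 95% interval of 2.61 to 3.29 and an edgeR adjusted p of 1.10e-17. Few genes rose more: 0.906% of tested genes had a larger log2 increase.

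Os07g0495100, described in the table by a maize beta subunit of CK2, had 2876, 3770 and 3416 counts in WT and 3419, 3766 and 4973 counts in myb110. Scaled to library size, it had 198, 204 and 202 CPM in WT and 243, 263 and 263 CPM in myb110. The lowest mutant library was above the highest WT library by more than the spread within either genotype. Its mean rose from 201 ± 2.75 to 256 ± 11.5 CPM, 1.27-fold (95% interval 1.22 to 1.33, edgeR adjusted p = 9.13e-11). A larger increase was seen in 9.62% of tested genes.

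Os10g0564900, the other beta subunit gene, had 1671, 2016 and 1841 counts in WT and 1902, 1959 and 2482 counts in myb110. These were 115, 109 and 109 CPM in WT and 135, 137 and 131 CPM in myb110. The groups again lay apart. It rose from 111 ± 3.68 to 134 ± 2.68 CPM, 1.21-fold (95% interval 1.15 to 1.28, edgeR adjusted p = 7.66e-07), and 12.7% of tested genes had a larger increase. Beta subunits bind the catalytic subunits and modulate their activity and choice of substrate. The intervals of the beta genes overlapped each other and lay far below that of Hd6.

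**Figure D1:**
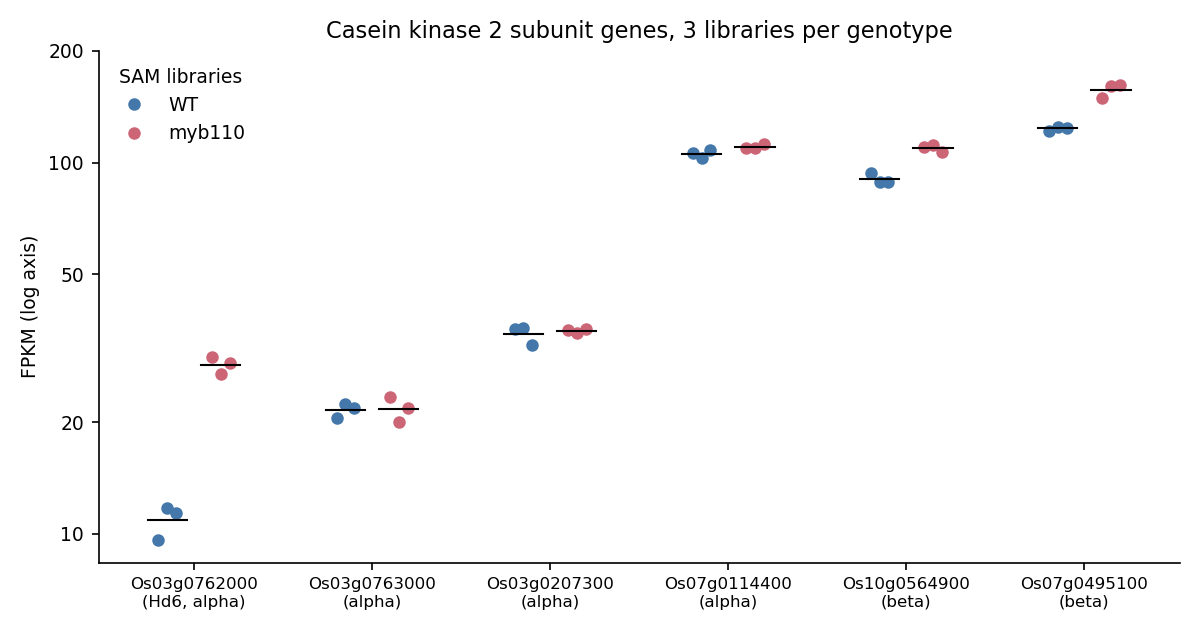
FPKM on a log axis for the 4 alpha and 2 beta subunit genes in the SAM, with 3 WT and 3 myb110 libraries as points and group means as bars. Hd6 moved from 9.62 to 11.8 FPKM in WT to 27.0 to 29.9 FPKM in myb110, while Os03g0763000 and Os03g0207300 overlapped between genotypes.

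The table holds 3 more alpha subunit genes, and none passed. Os07g0114400, the most abundant alpha gene, had 157 ± 4.17 CPM in WT and 164 ± 2.17 CPM in myb110, a log2 difference of 0.06 with a 95% interval from -0.01 to 0.13. Os03g0207300 had 44.6 ± 4.05 and 42.7 ± 1.49 CPM, a difference of -0.06 with an interval from -0.20 to 0.07. Os03g0763000, whose locus number is close to that of Hd6, had 32.8 ± 1.44 and 33.0 ± 2.57 CPM, a difference of 0.01 with an interval from -0.14 to 0.16. WT and myb110 overlapped for the last 2 genes and lay narrowly apart for Os07g0114400. The upper ends of all 3 intervals lie below the lower end for Hd6, at 1.38. All 4 alpha genes had whole-number counts in every library. How reads that match more than 1 of these related genes were assigned is not given in the sources used here, and neither is the strand, so their separation is uncertain.

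Per length, Hd6 was the least abundant of the 6 subunit genes in WT and no longer so in myb110. Its level was 9.62, 11.8 and 11.4 FPKM in WT and 29.9, 27.0 and 28.8 FPKM in myb110. In WT every library had less Hd6 than Os03g0763000, the next gene up, which ranged from 20.5 to 22.3 FPKM. In myb110 every library had more Hd6 than Os03g0763000, at 20.0 to 23.3 FPKM, and less than Os03g0207300, at 34.9 to 35.5 FPKM. At the upper end of the order, Os07g0495100 was the most abundant in all 6 libraries, with 122 to 125 FPKM in WT and 149 to 162 FPKM in myb110. Os10g0564900 lay below the alpha gene Os07g0114400 in WT, at 88.6 to 93.7 against 103 to 108 FPKM. In myb110 those ranges overlapped, at 107 to 111 and 109 to 112 FPKM.

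The share of Hd6 among the alpha genes was 2.31 times as high in myb110. It made up 5.60%, 6.81% and 6.56% of the summed alpha FPKM in WT and 15.1%, 14.1% and 14.5% in myb110. The mean share went from 6.32% ± 0.640 to 14.6% ± 0.487 (SD, n = 3), and an exact two-sided permutation test gave p = 0.1, the smallest that 3 against 3 libraries allow. The summed alpha level was 173 ± 0.935 FPKM in WT and 196 ± 3.85 FPKM in myb110. Without Hd6 that sum was 162 ± 0.892 and 167 ± 2.62 FPKM, so 5.31 of the 22.9 FPKM difference lay in the other 3 genes.

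Set against the beta genes, Hd6 also stood higher in the mutant. The ratio of Hd6 to the summed beta FPKM was 0.0447, 0.0550 and 0.0536 in WT and 0.115, 0.0993 and 0.107 in myb110, 2.10 times as high on average. The ratio of all alpha to all beta FPKM moved the other way, from 0.808 ± 0.00930 to 0.735 ± 0.0311, with no overlap between genotypes. For each of these ratios the exact two-sided permutation p was 0.1, the smallest possible. The split between the beta genes overlapped, with Os07g0495100 at 57.8% ± 1.12 of the beta sum in WT and 59.0% ± 1.33 in myb110 (exact permutation p = 0.4).

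The deposited counts and FPKM of Hd6 do not carry the same gene length in every library. CPM taken over the deposited total, divided by FPKM and scaled to bases, gives the length that the authors' FPKM assumed. For both beta genes, Os03g0763000 and Os07g0114400 this length was the same in all 6 libraries, at 1628, 1227, 1518 and 1483 bases. For Hd6 it was 1380, 1199 and 1379 bases in the WT libraries and 1474 bases in each myb110 library. Transcript values were not used here, and whether the transcripts of Hd6 differ between genotypes was not tested. Of 22823 tested genes with values in every library, 83.5% kept their length within 1% across libraries, and 1.29% varied at least as much as Hd6. In 73 genes, 0.320% of them, such a spread came with no overlap between genotypes. Os03g0207300 also varied, from 1171 to 1320 bases, with overlapping genotypes. The Hd6 difference was 2.61-fold in FPKM and 2.93-fold in CPM.

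**Figure D2:**
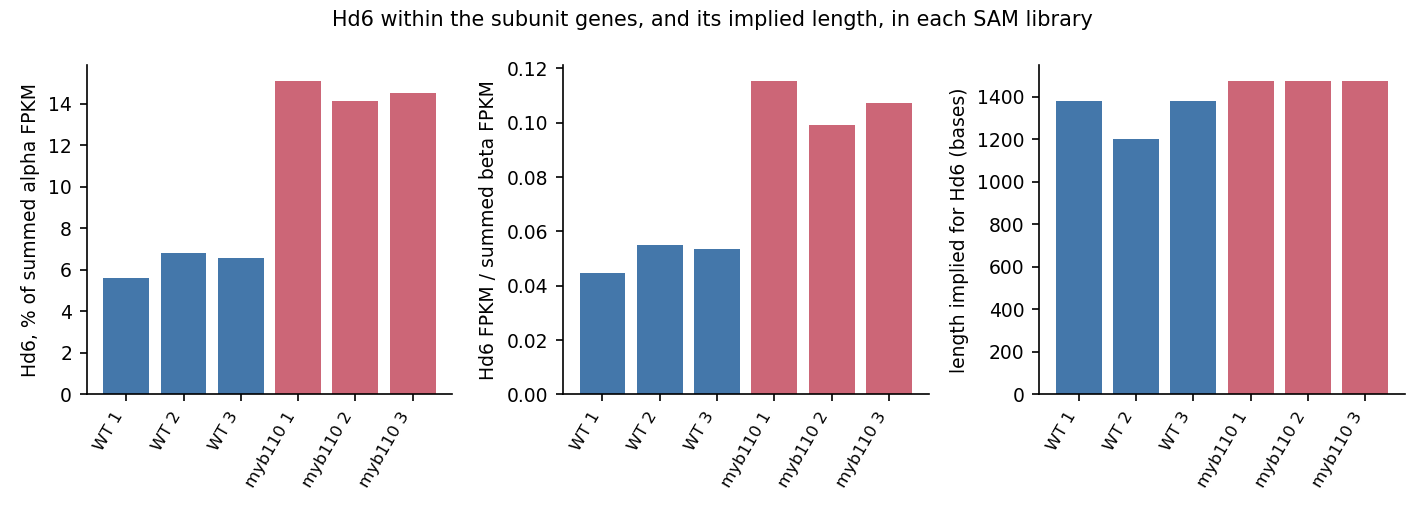
Bars give, for each SAM library, the Hd6 share of the summed alpha FPKM in percent, the ratio of Hd6 FPKM to the summed beta FPKM, and the length in bases that the deposited counts and FPKM imply for Hd6. The 3 myb110 libraries lie above the 3 WT libraries in each panel, and their implied length is 1474 bases throughout.

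Casein kinase 1 is a separate kinase family named for the same test substrate. None of its 13 annotated genes passed in edgeR, DESeq2 or limma, and 2 had an unadjusted edgeR p below 0.05. Their median log2 difference was -0.01, within a range from -0.09 to 0.11, against a median of 0.00 over all tested genes. Hd16 (Os03g0793500), the family member that delays rice flowering, had 98.0 ± 2.43 CPM in WT and 106 ± 3.31 CPM in myb110 (edgeR adjusted p = 0.0645). The CK2 search also found Os10g0566900, described as a casein kinase 2 substrate, with 5.84 ± 0.837 and 6.32 ± 0.344 CPM (edgeR adjusted p = 0.699). In all, 3 of the 7 genes annotated with CK2 rose, and none fell, against 10.9% and 11.7% over all tested genes. The 3 are those chosen here with earlier results of these data known.

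**Figure D3:**
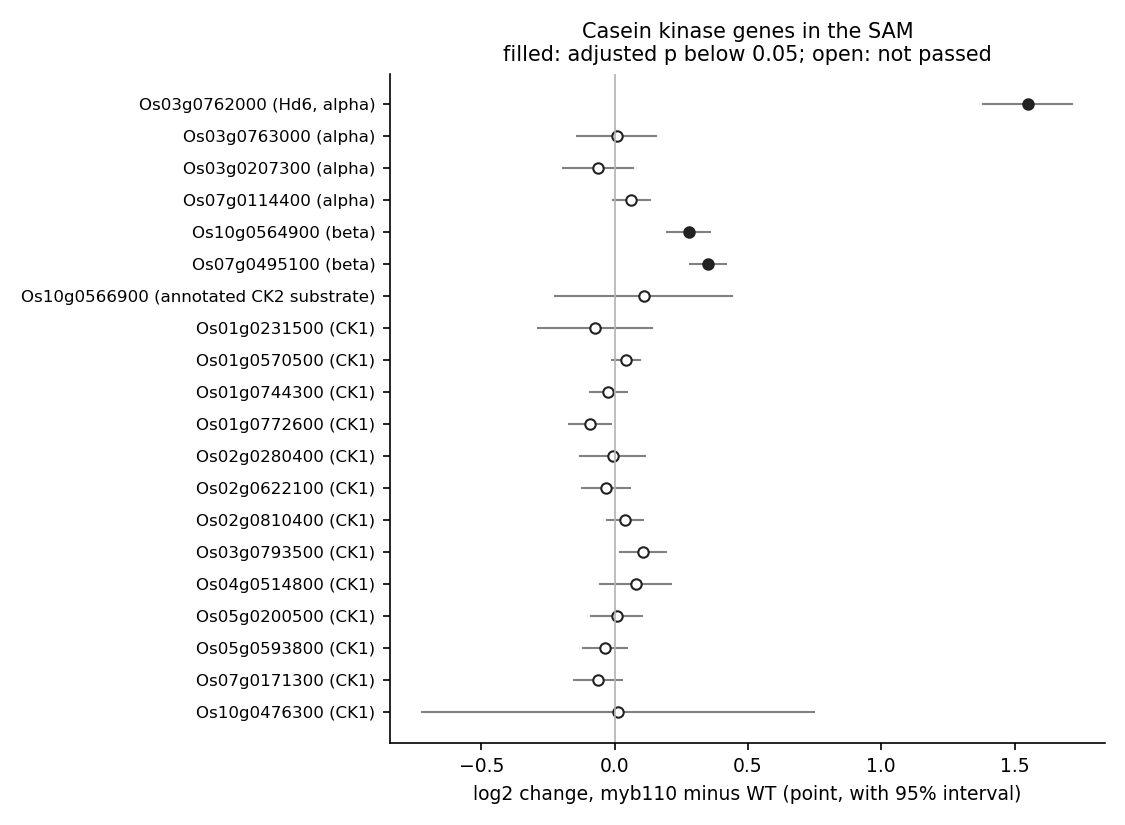
The log2 change from WT to myb110 in the SAM (x axis) with its 95% interval for 7 genes annotated with casein kinase 2 and 13 with casein kinase 1; filled points passed at an adjusted p below 0.05. Hd6 stands at 1.55 and the beta genes at 0.28 and 0.35, and no casein kinase 1 gene passed.

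None of the tested genes beside Hd6 differed between genotypes by as much as Hd6, and only 0.906% of all tested genes had a larger log2 increase. Of the 10 genes on each side in order of locus number, 14 were tested, 1 rose and 3 fell. Over all tested genes, 10.9% rose and 11.7% fell. The log2 changes of the 14 neighbours ran from -0.51 to 0.34 with a median of -0.08. The neighbours that fell were SN1 by 0.20, BIPP2C2, annotated as a protein phosphatase, by 0.25, and Os03g0762500 by 0.51. The gene rmt2 (Os03g0761200) rose by 0.34. With single libraries left out, rmt2 did not pass without WT 1, where its log2 change was 0.20 (edgeR adjusted p = 0.254), nor without WT 3 (0.0526), myb110 1 (0.208) or myb110 3 (0.0679). Likewise Os03g0762500 did not pass without WT 3, where its log2 change was -0.32 (0.257), nor without myb110 1 (0.130) or myb110 2 (0.0566). Neither passed in DESeq2 or limma. The nearest tested genes on either side, P4H9 (Os03g0761900) and Os03g0762100, differed by -0.10 and 0.02.

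The increase of Os07g0495100 lay within the range of its neighbours, and that of Os10g0564900, at 0.28, lay just above its highest neighbour, at 0.25. Beside Os07g0495100, 2 of 11 tested neighbours rose and 1 fell: WAKL1 (Os07g0494800) rose by 0.72, Os07g0494900 rose by 0.31, and UPF1 fell by 0.11. Os07g0494900 did not pass without WT 3 (edgeR adjusted p = 0.0532). UPF1 did not pass without WT 1 (0.0586), myb110 1 (0.0727) or myb110 2 (0.0729), and its sign turned on FPKM. Beside Os10g0564900, 5 of 14 rose and 1 fell. Among the neighbours of all 3 genes, 8 of 39 tested rose and 5 fell, against 10.9% and 11.7% over all tested genes. Those that rose beside Os10g0564900 were PEP by 0.19, RPL27C by 0.19, Os10g0565000 by 0.25, AMC1 by 0.20 and Os10g0565300 by 0.14, and Os10g0565150 fell by 1.41. AMC1 did not pass without myb110 2 (0.0687) or myb110 3 (0.0808). Os10g0565150 did not pass without WT 1 (0.125), WT 3 (0.131), myb110 2 (0.142) or myb110 3 (0.151), nor with no filter (0.0764), in DESeq2 (0.0989) or in limma on log2(FPKM + 1), where its log2 change was -0.33 (0.103). Os10g0565300 did not pass in limma on log2(FPKM + 1) (0.0556) or log2(FPKM + 0.1) (0.0554).

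**Figure D4:**
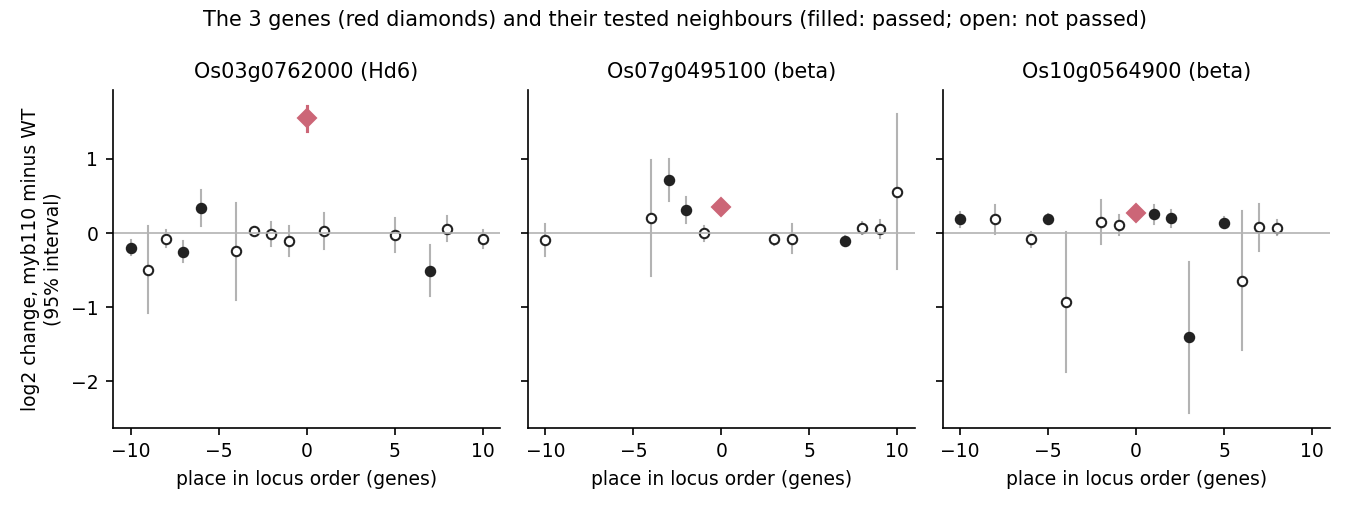
The log2 change from WT to myb110 (y axis, with 95% intervals) for each of the 3 genes (red diamonds) and its tested neighbours by place in locus order. Hd6 at 1.55 stands above all of its neighbours, Os07g0495100 lies within the range of its neighbours, and Os10g0564900 just above its own.

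For each of the 3 genes, the nearest patterns were searched among the 14299 other tested genes with a symbol in the table. Distance was the root mean square between centred log2 CPM over the 6 libraries, which counts the size of a change as well as its shape. Hd6 was nearest to Os02g0494400, an ankyrin repeat protein kinase gene with the symbol sti1 (0.0720), then Os12g0109200 (0.0823) and TIFY11B (0.10). Their log2 changes were 1.59, 1.42 and 1.54, against 1.55 for Hd6. The nearest genes to Os07g0495100 were Os04g0577300 (0.0174), Klhdc4 (0.0200) and NFS2 (0.0206), and those to Os10g0564900 were RAP74, a subunit gene of transcription factor IIF (0.0142), XB3 (0.0174) and UXT3 (0.0199). None of these is a CK2 gene, and the beta genes were not among the 3 nearest to each other. With only 3 genes taken from 14299, this does not bear on shared regulation, which was not tested.

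The proteins that CK2 is linked to in flowering and the clock were measured as transcripts in the same libraries. Of 18 listed genes 13 were tested, of which 6 rose, 3 fell and 4 did not pass in edgeR. Over all tested genes, 10.9% rose and 11.7% fell. DESeq2 called 8 of the 13 listed genes and limma on log2(FPKM + 1) called 7. The median log2 change of the 13 was 0.15, and none differed by as much as Hd6, whose increase only 0.906% of all tested genes exceeded. PRR37, the pseudo-response regulator and heading-date gene Hd2, whose protein is phosphorylated by the CK2 subunit Hd6 in rice, rose from 78.0 ± 5.31 to 86.2 ± 0.603 CPM, by 0.15 ± 0.05 on the log2 scale (edgeR adjusted p = 0.0230). PRR37 did not pass in DESeq2 (0.0683) or limma, nor without WT 2, where its log2 change was 0.09 (0.204), nor without myb110 1 (0.0561) or myb110 3 (0.0838). The clock regulator GI rose by 0.45 ± 0.02, the blue-light F-box gene of the FKF1 type, Os11g0547000, by 0.85 ± 0.07, and PRR73 by 0.20 ± 0.03. PRR1 (Os02g0618200) rose by 0.43 ± 0.07 and Os11g0157600, a locus with the symbol PRR95, by 0.33 ± 0.07 (edgeR adjusted p = 1.28e-05 and 0.00041).

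Among the genes that fell, LHY (Os08g0157600, called Nhd1 in the series and related to the CK2 substrate CCA1 of Arabidopsis) fell by 0.56 ± 0.03. The F-box genes of the ZEITLUPE type, Os02g0150800 and Os06g0694000, fell by 0.23 ± 0.05 and 0.11 ± 0.04. Os06g0694000 did not pass without WT 1 (edgeR adjusted p = 0.0679), WT 2 (0.0661), myb110 2 (0.101) or myb110 3 (0.0642), nor in limma on log2(FPKM + 1) (0.0718). Hd1, the zinc finger gene through which Hd6 acts on heading, had 1.65 ± 0.498 CPM in WT and 2.63 ± 0.260 CPM in myb110 and did not pass (edgeR adjusted p = 0.0969). Hd16, the other PRR95 locus (Os09g0532400) and HD3B did not pass either. Ghd7 and Ehd1, which act upstream of florigen, and the florigen gene Hd3a had 0 counts in all 6 libraries, and a difference in them was not detectable at this depth.

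**Figure D5:**
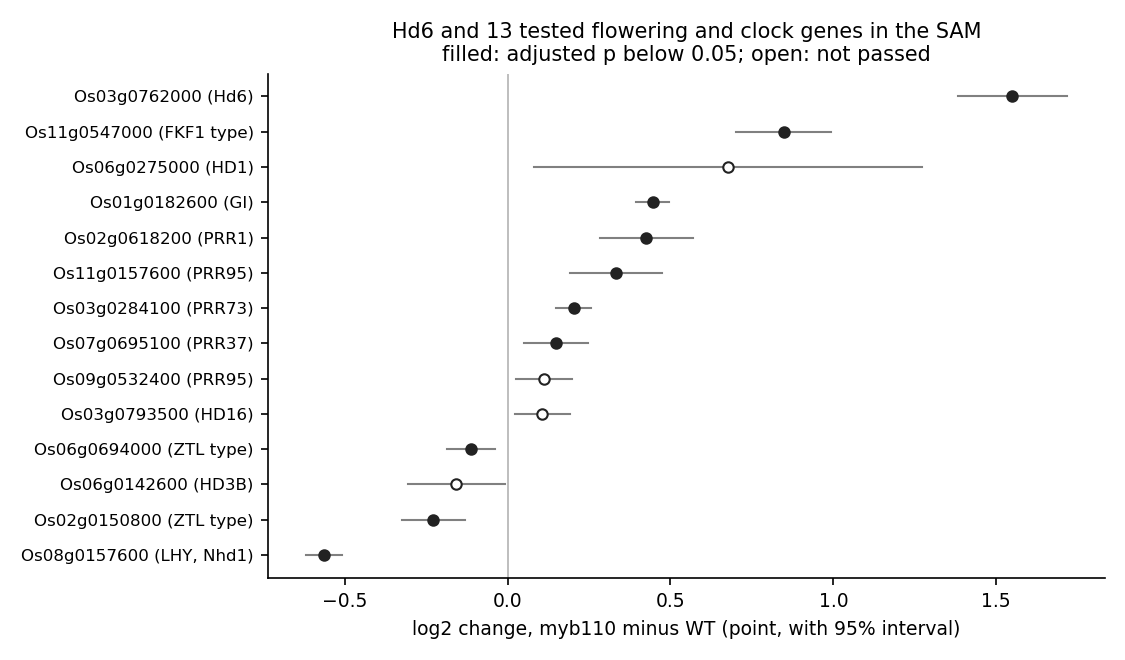
The log2 change from WT to myb110 in the SAM (x axis) with its 95% interval for Hd6 and the 13 tested flowering and clock genes, with filled points for those that passed. Hd6 at 1.55 stands to the right of all 13, and LHY at -0.56 is the lowest.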

How the data were processed

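RNA was enriched for poly(A), fragmented and copied with random primers, per the labels' protocols, and fastp is the tool named for the reads, per the submitters' processing notes. Aligner, counting program, genome build, annotation and strand were not given in the sources used here. Per library the authors deposited estimated counts, of which 12.3% to 13.2% were not whole, and FPKM made by the authors from lengths that are not stated. Column names gave genotype and number, while tissue came from the table's name. Left out were 24 columns of per-sample values that match no labelled sample, 6 in the SAM table and 18 for the blade. Genes in the table carry locus numbers or, for 1007, assembled gene numbers. No coordinates or sequences were used.

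Counts were rounded, filtered with filterByExpr (minimum count 10), scaled by TMM and tested over 23167 genes with edgeR's quasi-likelihood test (edgeR 4.0.16, R 4.3.3) with Benjamini-Hochberg adjustment and a threshold of 0.05. Log2 changes are myb110 minus WT. The error after ± is the SD for levels and, for log2 changes, a standard error from edgeR's F. Intervals beside them use edgeR's total degrees of freedom. DESeq2 1.42.0 and limma 3.58.1, the latter on log2(FPKM + 1) and log2(FPKM + 0.1), other scaling, no filter, each library left out and a replicate block were tried as alternatives. The steps were checked on simulated counts. Libraries of a genotype differed beyond counting noise (chi-square per gene 2.16 to 2.64).

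Lists were made by searching the annotation for casein kinase 2 and 1, plus a list of flowering and clock genes, 10 neighbours on each side, and marker genes. A CK1 symbol annotated in lipid synthesis and a meristem locus annotated as another gene were dropped. The genes and lists were chosen with earlier results of these data known. The rule named the 3 genes, all CK2 genes, up to 3 rises and 3 falls per list by p, neighbours that passed, and the 3 nearest patterns. Hd16, Hd1, PRR37, PRR1, both PRR95 loci, HD3B, P4H9, Os03g0762100 and OSH1 were added after their values were seen. So were the alpha-to-beta ratio, the split of the beta sum and the implied lengths. Not every member of the flowering and clock list is reported here by name.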

Additional observations from a re-analysis of the deposited data

How the results depend on the processing

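The calls of Hd6, Os07g0495100 and Os10g0564900 kept their direction and passed in all 12 alternatives run for each: other scaling, no filter, DESeq2, limma on FPKM at 2 pseudocounts, each library left out and the replicate block. Their log2 changes ran from 1.31 to 1.62, 0.33 to 0.39 and 0.26 to 0.30, with highest adjusted p of 1.46e-06, 0.000128 and 0.000483. The lowest Hd6 value was that of limma on log2(FPKM + 1). The number of CK2 genes called was 3 in all 12, while calls over all genes ranged from 3885 in DESeq2 to 5584 with no filter. With counts in place of FPKM, the log2 ratio of Hd6 to the beta sum differed by 1.23 instead of 1.07, and the Hd6 share of the alpha sum by 9.19 instead of 8.26 percentage points. The FPKM differences ran from 0.980 to 1.13 and from 7.90 to 8.51 with each library left out. Counts and FPKM of a gene differ by its implied length, which for Hd6 was 1199 to 1380 bases in WT and 1474 bases in each myb110 library. Why that length varied was not tested.

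Signs turned only where differences were small. Os03g0207300, at -0.06, was 0.028 in limma on log2(FPKM + 1) and 0.029 on log2(FPKM + 0.1). UPF1 (Os07g0495900), at -0.11, was 0.0024 in both. With libraries left out, Os03g0763000, at 0.01, ranged from -0.044 to 0.063, and OSH6 (Os01g0302500), also at 0.01, from -0.022 to 0.033. Replicate numbers did not pair the libraries: deviations of same-numbered libraries correlated at -0.05, -0.04 and 0.01. With the replicate block, 4976 genes passed instead of 5233, and Hd6 differed by 1.55; of the genes named, rmt2 (0.0836) and Os10g0565150 (0.0531) did not pass in edgeR with the block. With 3 libraries per genotype, permutation tests of single values cannot go below p = 0.1.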

Other observations

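The table's annotated plant circadian rhythm pathway, looked at after the values were seen, holds 34 tested genes, and 6 of them are the CK2 subunit genes. In edgeR 11 of the 34 rose, among them Hd6 and both beta genes, and 4 fell. Without the CK2 genes 8 of 28 rose, 4 fell and 16 did not pass. Over all tested genes, 10.9% rose and 11.7% fell. DESeq2 called 13 of the 34 and 10 of the 28, and limma on log2(FPKM + 1) called 12 and 9. The largest log2 increase among the 34 was that of Hd6, at 1.55, and among the other 28 it was 0.85, that of Os11g0547000.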
